A study of Mus musculus with 9 samples.

Results

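This account covers the enzymes of glycolysis, pyruvate entry into mitochondria, the pentose phosphate pathway and the tricarboxylic acid (TCA) cycle: 46 genes, chosen by symbol, of the 11315 genes measured. All 46 were found. They comprise 7 genes of early glycolysis, 3 of later glycolysis and lactate, 6 glycolysis genes with many pseudogene copies that are kept apart throughout, 8 of pyruvate entry, 7 of the pentose phosphate pathway and 15 of the TCA cycle with its NADP-linked side reactions. RNA sequencing had been done on cells sorted by fluorescence from the brains of C57BL/6 mice at postnatal day 60, with 3 libraries for each of 3 reporters. The PDGFRa-GFP group (written PDGFRa::GFP in the labels) is labelled oligodendrocyte progenitors, the PLP-GFP group (PLP::GFP) pre-myelinating oligodendrocytes and the NDRG1-eGFP group myelinating oligodendrocytes, and no other allele or treatment is named. The comparisons ask how these populations differ, and the libraries of each group enter 2 of the 3 comparisons.

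Glycolysis splits glucose into pyruvate in the cytosol and yields ATP and NADH, and lactate dehydrogenase interconverts pyruvate and lactate. The pyruvate dehydrogenase complex turns pyruvate into acetyl-CoA inside mitochondria, where the TCA cycle oxidises it, while the pentose phosphate pathway branches from glycolysis to supply NADPH and ribose. Oligodendrocytes build large amounts of lipid for myelin, which draws on acetyl-CoA and NADPH, and they are known for passing lactate to the axons they wrap.

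Each deposited value is a normalized log2 value per gene and library. A gene's values can be compared between libraries. Whether they were corrected for transcript length is not known, so levels of different genes are not ranked here. Sequencing depth is unknown. Whether the 3 replicates of a reporter are different animals is not stated in the labels. The p-values therefore measure only how far these libraries scatter, which may be technical. Libraries of 1 group correlated over all genes at 0.931 to 0.985. PDGFRa-GFP replicate 3 stood apart, at 0.931 and 0.935 with the other PDGFRa-GFP libraries against 0.982 between those 2, and its Mbp value was 17.55 against 19.71 and 19.58. Oligodendrocyte markers (10 of 10 measured, log2 of their sum) lay between 22.4 and 22.7 in every library. The 8 progenitor markers (Pdgfra, Cspg4, Vcan, Matn4, Lhfpl3, Olig1, Olig2 and Sox10) lay between 17.2 and 17.5. The groups are called here by their reporters. A sum of this kind is carried by its most abundant genes, so it does not measure the progenitor content of a group. By gene, the progenitor markers had a median log2 fold change of -0.55 in NDRG1-eGFP against PDGFRa-GFP, with 0 called higher and 1 lower. They had 2 higher and 1 lower in NDRG1-eGFP against PLP-GFP, and 0 higher and 1 lower in PLP-GFP against PDGFRa-GFP. Markers of fibroblast-like cells (7 of 8 measured) summed to 12.6 to 13.5 in PDGFRa-GFP, 7.1 to 8.7 in PLP-GFP and 11.4 to 13.2 in NDRG1-eGFP libraries. Immediate early genes (10 of 10) summed to 13.8 to 17.8, 13.6 to 13.8 and 14.8 to 17.9, and microglial markers (8 of 9) to 11.91 to 12.55, 11.46 to 12.05 and 12.56 to 13.08. Erythrocyte markers (5 of 5) summed to 10.2 to 14.5, 12.7 to 13.6 and 8.8 to 11.7. Their part in the results below was not tested. In sorted bulk RNA, fewer cells of a type and less RNA per cell cannot be told apart.

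Between NDRG1-eGFP and PLP-GFP cells, 14 of the 46 enzymes were higher in NDRG1-eGFP cells and 8 were lower (limma, Benjamini-Hochberg adjusted p under 0.05 over all genes). Of all genes tested, 26.1% were called higher and 22.2% lower in that comparison. The median log2 fold change was 0.22 for the 46 and 0.08 for all genes. Between PLP-GFP and PDGFRa-GFP cells 3 enzymes were higher in PLP-GFP cells and 6 lower, against 8.46% and 8.53% of all genes, with medians of -0.13 and 0.03. Between NDRG1-eGFP and PDGFRa-GFP cells 10 were higher in NDRG1-eGFP cells and 5 lower, against 10.7% and 10.4% of all genes, with medians of 0.24 and 0.14. That shift of all genes by 0.14 matters for the last comparison: after recentring each library on its median ratio, where the shift was 0.04, only 2 enzymes were called higher there, and over all genes the split of higher against lower calls went from 1207 against 1176 to 591 against 1362. In all, 20 of the 46 were called in none of the comparisons, and Pfkl, Gapdh and Eno1 in each of them. The matching shares of all genes are not given here, so these counts do not set the enzymes apart.

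Transcript length moved with the groups and touches many of these counts. Transcripts of 1 to 2 kb had median deviations from their 9-library mean of 0.43, 0.35 and 0.22 in NDRG1-eGFP replicates 1 to 3, of -0.22, -0.38 and -0.35 in PLP-GFP replicates, and of -0.14, -0.04 and 0.32 in PDGFRa-GFP replicates. Transcripts above 8 kb went the other way, at -0.40, -0.39 and -0.18 in NDRG1-eGFP and 0.19, 0.37 and 0.26 in PLP-GFP libraries. The TCA enzymes have a median transcript length of 2580 bases and the many-copy glycolysis genes one of 1820 bases, against 3513 bases for all genes. When each library's trend on transcript length was removed, NDRG1-eGFP against PLP-GFP gave 4 higher and 9 lower (19.3% and 16.5% of all genes). PLP-GFP against PDGFRa-GFP then gave 3 higher and 2 lower (4.44% and 5.15%), and NDRG1-eGFP against PDGFRa-GFP gave 2 higher and 7 lower (8.73% and 9.04%). Of the 22, 9 and 15 calls, 11, 5 and 7 kept their call and direction, for which no share of all genes is given here. The length-corrected result is therefore given beside each group of enzymes below. Whether the trend came from the cells or from the handling of the RNA was not tested.

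**Figure D1:**
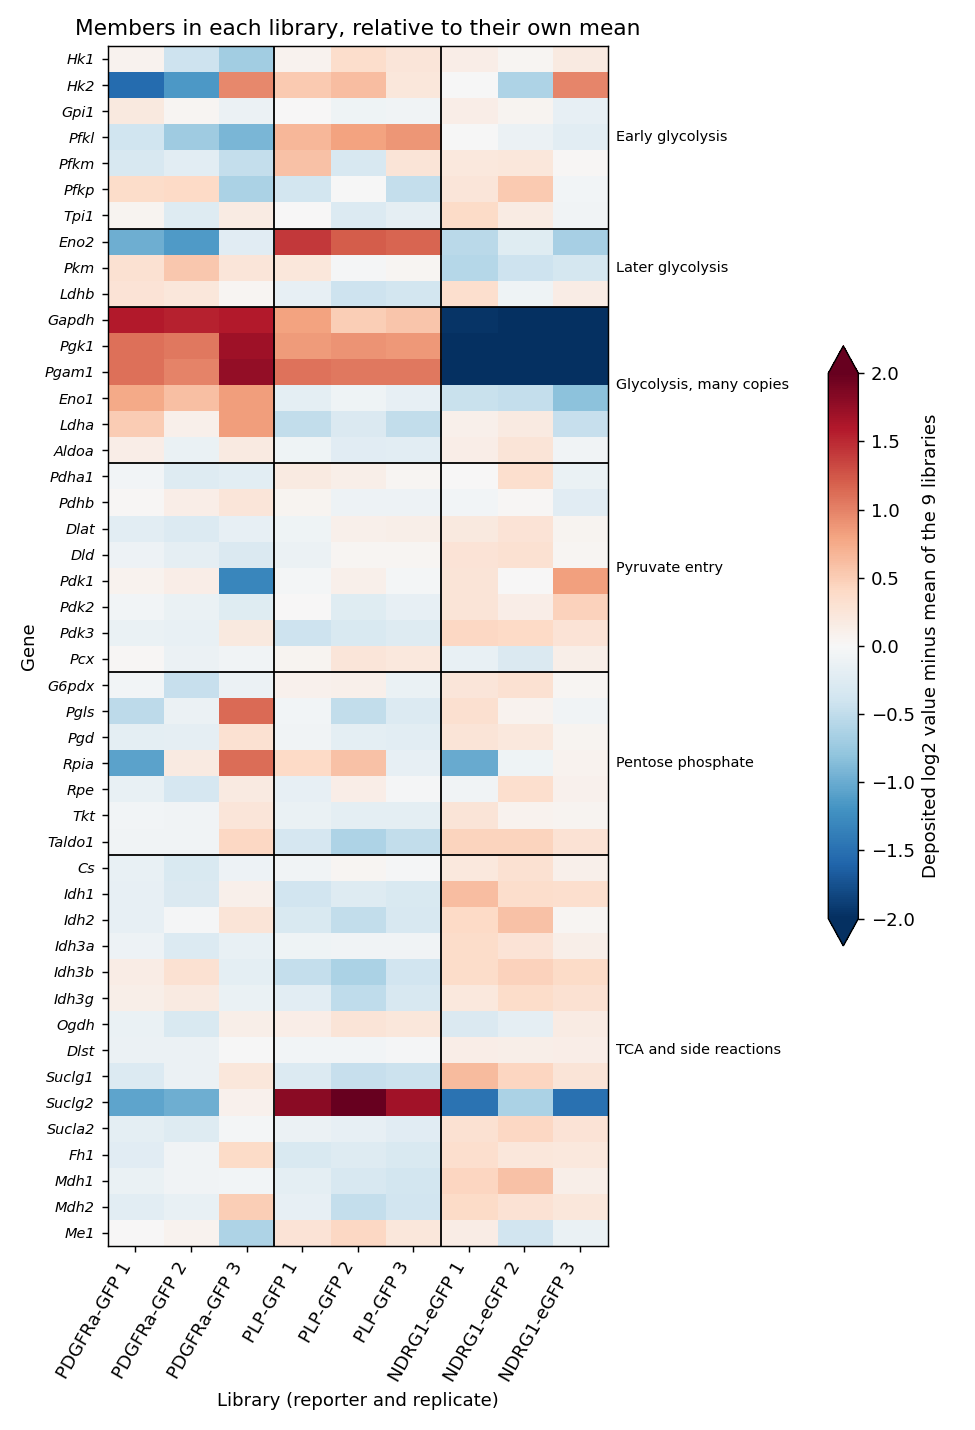
Deposited log2 value of each of the 46 enzymes (rows, grouped by pathway) in each of the 9 libraries (columns, by reporter and replicate), minus the gene's own mean over the 9 libraries. Red is above and blue below that mean, and colours saturate at 2. Pfkl, Eno2 and Suclg2 are red in the 3 PLP-GFP columns, and Gapdh, Pgk1 and Pgam1 are dark blue in the 3 NDRG1-eGFP columns.

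Of the 7 early glycolysis genes, Pfkl alone was called on the deposited values. It was 1 lower in NDRG1-eGFP against PLP-GFP (22.2% of all genes) and 1 higher in PLP-GFP against PDGFRa-GFP (8.46%). In NDRG1-eGFP against PDGFRa-GFP it was also 1 higher (10.7%). With the length trend removed, Pfkp was called as well, higher in NDRG1-eGFP than PLP-GFP cells (19.3% of all genes). Phosphofructokinase commits sugar to glycolysis, and Pfkl, Pfkm and Pfkp encode its liver, muscle and platelet subunits. Pfkl (chromosome 10, 77986947 to 78010083, GRCm38) read 11.34, 11.03 and 10.82 in PDGFRa-GFP replicates 1, 2 and 3, 12.41, 12.54 and 12.62 in PLP-GFP replicates, and 11.74, 11.62 and 11.53 in NDRG1-eGFP replicates. The 3 groups did not overlap: PLP-GFP libraries were highest, NDRG1-eGFP libraries came next and PDGFRa-GFP libraries were lowest. Pfkl was 2.75-fold higher in PLP-GFP than PDGFRa-GFP cells (log2 fold change 1.46 ± 0.15, SE; limma adjusted p 0.000649). From PLP-GFP to NDRG1-eGFP cells the log2 change was -0.89 ± 0.15 (adjusted p 0.00103). With the length trend removed these changes were 1.37 and -0.85, and both calls held without any single library. The smaller difference between NDRG1-eGFP and PDGFRa-GFP cells, 0.56 ± 0.15 (adjusted p 0.0251), missed the threshold without PDGFRa-GFP replicate 2 (adjusted p 0.0633), without NDRG1-eGFP replicate 1 (0.0859) or 2 (0.0690), and after recentring (0.0684).

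The other phosphofructokinase subunits did not pass the test on the values as deposited. Pfkm read 8.69, 8.82 and 8.55 in PDGFRa-GFP, 9.61, 8.71 and 9.27 in PLP-GFP, and 9.24, 9.26 and 9.05 in NDRG1-eGFP libraries. Pfkp, whose longest transcript is 8681 bases, read 9.21, 9.25 and 8.21 in PDGFRa-GFP, 8.48, 8.84 and 8.38 in PLP-GFP, and 9.09, 9.38 and 8.79 in NDRG1-eGFP libraries. Groups overlapped for both genes except that PDGFRa-GFP lay below NDRG1-eGFP for Pfkm. Pfkp was 0.52 ± 0.30 apart between NDRG1-eGFP and PLP-GFP (adjusted p 0.175), and 1.15 with the length trend removed (adjusted p 0.00693). Without PDGFRa-GFP replicate 3 it was also called on the deposited values, at the same 0.52.

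Hexokinases, which trap glucose in the cell, passed the test in no comparison. Hk1, the main brain form, read 11.79, 11.31 and 11.03 in PDGFRa-GFP, 11.79, 12.08 and 11.97 in PLP-GFP, and 11.86, 11.77 and 11.91 in NDRG1-eGFP libraries. Its largest difference was PLP-GFP over PDGFRa-GFP, 0.57 ± 0.18 (limma adjusted p 0.0571). Hk2, an inducible form, ran from 4.57 to 7.07 within the PDGFRa-GFP group, with a value of 4.96 in its replicate 2. Its other readings were 6.64, 6.74 and 6.34 in PLP-GFP and 6.11, 5.5 and 7.09 in NDRG1-eGFP libraries, so the groups overlapped and no comparison was called. Gpi1, the isomerase that follows hexokinase, and Tpi1, which interconverts the triose phosphates, were also not called, with log2 fold changes between -0.13 and 0.31 in the 3 comparisons.

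Later in glycolysis, the enolase isoenzyme Eno2 was, like Pfkl, highest in PLP-GFP cells. Enolase makes phosphoenolpyruvate, and Eno2 encodes the gamma form best known from neurons. Eno2 (chromosome 6, 124760053 to 124769673, GRCm38) read 8.96, 8.80 and 9.72 in PDGFRa-GFP, 11.36, 11.15 and 11.10 in PLP-GFP, and 9.39, 9.69 and 9.28 in NDRG1-eGFP libraries. Every PLP-GFP library was more than 1 log2 unit above every other library, while the other two groups overlapped. Eno2 was 4.12-fold higher in PLP-GFP than PDGFRa-GFP cells (log2 fold change 2.04 ± 0.24; limma adjusted p 0.00117) and its change from PLP-GFP to NDRG1-eGFP was -1.75 ± 0.24 (adjusted p 0.000339). Both calls held without any single library and with the length trend removed (2.12 and -2.0). NDRG1-eGFP and PDGFRa-GFP differed by 0.29 ± 0.24 (adjusted p 0.399). Neuronal markers, 8 of 10 measured, had no called member in any comparison, and their log2 sums were 12.6 to 12.7 in PDGFRa-GFP, 12.5 to 13.4 in PLP-GFP and 12.5 to 13.1 in NDRG1-eGFP libraries.

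Pyruvate kinase values were lowest in NDRG1-eGFP libraries. Pkm, whose product makes pyruvate and ATP, read 14.27, 14.50 and 14.20 in PDGFRa-GFP, 14.19, 13.94 and 14.00 in PLP-GFP, and 13.39, 13.55 and 13.62 in NDRG1-eGFP libraries. All 3 NDRG1-eGFP libraries were below the other 6, and the other groups differed by -0.28 ± 0.13 (limma adjusted p 0.140). The change from PLP-GFP to NDRG1-eGFP was -0.52 ± 0.13 (adjusted p 0.00677) and that from PDGFRa-GFP was -0.80 ± 0.13 (adjusted p 0.00186). Both held without any single library and were larger with the length trend removed, at -0.88 and -1.01. Of its 50-base coding windows 47.0% also occur at another locus, a limit taken up below. Gene-level values do not separate its splice forms.

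Ldhb, the lactate dehydrogenase subunit common in heart and brain, read 12.78, 12.74 and 12.55 in PDGFRa-GFP, 12.36, 12.11 and 12.15 in PLP-GFP, and 12.85, 12.43 and 12.67 in NDRG1-eGFP libraries. PLP-GFP libraries were the lowest 3. Of the Ldhb coding windows 35.5%, and of its transcript windows 21.0%, also occur at 1 other locus, a pseudogene. The gene was called lower in PLP-GFP than PDGFRa-GFP cells (-0.49 ± 0.14, limma adjusted p 0.0402) and higher in NDRG1-eGFP than PLP-GFP cells (0.45 ± 0.14, adjusted p 0.0232). Its longest transcript is 1304 bases, and with the length trend removed both differences went (-0.07 with adjusted p 0.820, and -0.08 with adjusted p 0.758). The first call was also lost without NDRG1-eGFP replicate 3, PDGFRa-GFP replicate 1 or 2, or PLP-GFP replicate 2 or 3 (highest adjusted p 0.163). The second was lost without NDRG1-eGFP replicate 1 or 3 or PLP-GFP replicate 2 or 3 (highest adjusted p 0.0915).

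**Figure D2:**
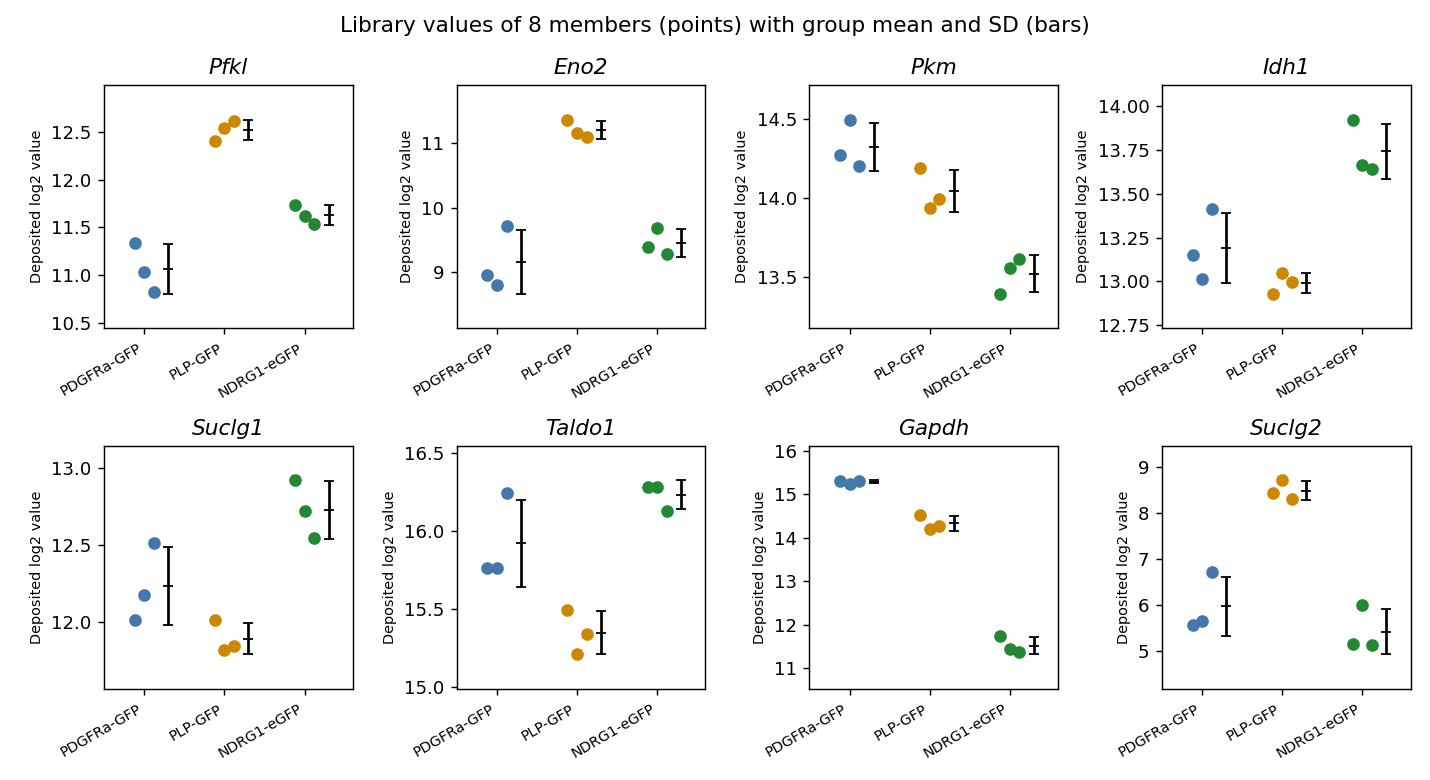
Deposited log2 values of 8 enzymes in the 9 libraries (points, replicates 1 to 3 from left to right within each reporter), with the group mean and SD as bars. Each panel has its own vertical axis, which does not start at 0. Pfkl, Eno2 and Suclg2 peak in PLP-GFP, Idh1 and Suclg1 are highest in NDRG1-eGFP, and Pkm and Gapdh are lowest there.

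Gapdh, Pgk1 and Pgam1, glycolysis genes with many processed copies in the genome, were the 3 with the largest difference among the 46 in NDRG1-eGFP against PDGFRa-GFP. A processed copy is a reverse-transcribed, intron-less version of the messenger RNA, so a short read from the gene can match several places equally well, and a counting method may drop or split it. For every coding sequence the share of 50-base windows found again in a transcript of any other locus was computed (GENCODE M21, GRCm38). It was 94.2% for Gapdh, 100% for Pgk1 and Pgam1, 83.4% for Eno1, 57.8% for Suclg2, 28.4% for Ldha and 16.8% for Aldoa. Over all transcripts of each gene, not only coding sequence, the share was lower. It was 24.7% for Gapdh, 53.9% for Pgk1, 36.2% for Pgam1, 26.0% for Eno1, 16.0% for Suclg2, 9.0% for Ldha and 6.4% for Aldoa. For each of 4 of these genes, a coding window that occurs at the most other loci is printed as it stands in GENCODE M21. Its count of loci is thus the gene's maximum, not that of a typical read. Positions are counted from 1 at the start codon. The Gapdh window (bases 493 to 542 of 1080; gene on chromosome 6, 125161715 to 125166467, minus strand) occurs at 83 other loci. That of Eno1 (445 to 494 of 1305; chromosome 4, 150236721 to 150248879) occurs at 5, that of Pgam1 (451 to 500 of 765; chromosome 19, 41911923 to 41918660) at 3 and that of Suclg2 (91 to 140 of 1302; chromosome 6, 95473009 to 95718800, minus strand) at 1. The last line gives Eno2 at the Eno1 positions, with its 6 differences from Eno1 in capitals.
Gapdh: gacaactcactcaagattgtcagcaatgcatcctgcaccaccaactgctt
Pgam1: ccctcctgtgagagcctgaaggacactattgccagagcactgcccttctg
Suclg2: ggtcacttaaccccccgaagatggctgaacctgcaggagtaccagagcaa
Eno1: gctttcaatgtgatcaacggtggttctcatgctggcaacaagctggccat
Eno2: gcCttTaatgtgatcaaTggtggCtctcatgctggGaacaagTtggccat
Eno1 and Eno2 are 75.1% identical over coding sequences of 1305 bases each, with no identical run longer than 20 bases. Any 50 bases of coding sequence thus tell them apart. The printed windows of Gapdh, Pgam1, Suclg2 and Eno1 cannot be placed by their sequence alone.

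Gapdh, the dehydrogenase that yields the NADH of glycolysis, read 15.31, 15.25 and 15.30 in PDGFRa-GFP, 14.53, 14.20 and 14.27 in PLP-GFP, and 11.76, 11.45 and 11.37 in NDRG1-eGFP libraries. The groups did not overlap, and the NDRG1-eGFP value was 0.0739 times the PDGFRa-GFP value (log2 fold change -3.76 ± 0.13, limma adjusted p 6.11e-08) and 0.143 times the PLP-GFP value (-2.81 ± 0.13, adjusted p 4.908e-07). PLP-GFP lay below PDGFRa-GFP by a log2 fold change of -0.95 ± 0.13 (adjusted p 0.00340). Gapdh is often used as a reference gene, and its transcripts share windows with 218 other loci, of which 213 are annotated as pseudogenes.

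Pgk1, the phosphoglycerate kinase, read 12.65, 12.60 and 13.24 in PDGFRa-GFP, 12.41, 12.45 and 12.42 in PLP-GFP, and 9.53, 9.53 and 9.14 in NDRG1-eGFP libraries. Pgam1, the mutase of the next step, read 11.98, 11.87 and 12.64 in PDGFRa-GFP, 11.97, 11.93 and 11.93 in PLP-GFP, and 8.56, 8.69 and 8.34 in NDRG1-eGFP libraries. Both fell by several log2 units in NDRG1-eGFP libraries, while the other groups lay close to each other. The changes from PLP-GFP were -3.03 ± 0.19 for Pgk1 and -3.41 ± 0.20 for Pgam1 (limma adjusted p 2.038e-06 and 1.547e-06), those from PDGFRa-GFP were -3.43 and -3.64, and PLP-GFP against PDGFRa-GFP was called for neither (-0.40 and -0.22). All calls of Gapdh, Pgk1 and Pgam1 held without any single library and with the length trend removed.

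Eno1, the ubiquitous enolase, read 13.26, 13.10 and 13.35 in PDGFRa-GFP, 12.31, 12.42 and 12.35 in PLP-GFP, and 12.05, 12.03 and 11.68 in NDRG1-eGFP libraries. The groups did not overlap, with PDGFRa-GFP highest. PLP-GFP was lower than PDGFRa-GFP (-0.88 ± 0.13, limma adjusted p 0.00493) and NDRG1-eGFP lower still against PDGFRa-GFP (-1.31 ± 0.13, adjusted p 9.222e-05). The step from PLP-GFP to NDRG1-eGFP, -0.44 ± 0.13 (adjusted p 0.0218), missed the threshold without PLP-GFP replicate 2 (adjusted p 0.0805) or 3 (0.0646) or without NDRG1-eGFP replicate 3 (0.0733), and was -0.90 with the length trend removed. Eno1b, a near-identical copy listed as a gene of its own, with 85.2% of its transcript windows shared, followed another order: its means were 9.51 in PDGFRa-GFP, 11.11 in PLP-GFP and 7.92 in NDRG1-eGFP libraries. Its changes were 1.61 ± 0.29 for PLP-GFP against PDGFRa-GFP and -3.20 ± 0.29 for NDRG1-eGFP against PLP-GFP (adjusted p 0.00965 and 2.944e-05). Values of Eno1 and Eno1b are uncertain because reads could be split between them.

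Ldha, the lactate dehydrogenase subunit that favours lactate formation in muscle, read 11.80, 11.39 and 12.13 in PDGFRa-GFP, 10.79, 11 and 10.80 in PLP-GFP, and 11.39, 11.46 and 10.82 in NDRG1-eGFP libraries. PLP-GFP lay below PDGFRa-GFP without overlap (-0.91 ± 0.22, limma adjusted p 0.0232), but this call was lost without any 1 of the PLP-GFP replicates (highest adjusted p 0.0875) and with the length trend removed (-0.62, adjusted p 0.0599). With that trend removed Ldha was instead called lower in NDRG1-eGFP against PDGFRa-GFP (-0.76, adjusted p 0.0181), where the deposited values gave -0.55 (adjusted p 0.0984). Aldoa, the main aldolase, read 15.64, 15.37 and 15.68 in PDGFRa-GFP, 15.42, 15.27 and 15.28 in PLP-GFP, and 15.63, 15.76 and 15.44 in NDRG1-eGFP libraries, and no comparison was called. Its copy gene Aldoart1 averaged 6.71, 7.32 and 3.53 in the 3 groups.

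Over all measured genes, those that share sequence with other loci were often lower in NDRG1-eGFP libraries. They include members such as Gapdh, and sharing need not mean a copy: of the 167 loci that share windows with Ldha, 16 are annotated as pseudogenes. Of 999 genes with over 5% of their transcript windows shared, 47.8% were called lower in NDRG1-eGFP than PLP-GFP cells and 45.4% lower than PDGFRa-GFP cells. Among the 10272 genes with at most 5% the shares were 19.7% and 6.96%, and 7.8% were called lower in PLP-GFP against PDGFRa-GFP. Called higher among those 10272 were 27.7% in NDRG1-eGFP against PLP-GFP, 8.92% in PLP-GFP against PDGFRa-GFP and 11.5% in NDRG1-eGFP against PDGFRa-GFP. Of the 46 enzymes, 14 were over this limit and 32 were not. Among the 32, NDRG1-eGFP against PLP-GFP gave 12 higher and 2 lower, and PLP-GFP against PDGFRa-GFP gave 2 higher and 1 lower. NDRG1-eGFP against PDGFRa-GFP gave 10 higher and 0 lower. With the length trend removed these counts were 3 and 2, 2 and 0, and 2 and 0. Of all genes, 19.3% and 16.5%, 4.44% and 5.15%, and 8.73% and 9.04% were then called higher and lower. Pfkl and Eno2 were thus the only enzymes among the 32 called lower in NDRG1-eGFP cells, both against PLP-GFP. Whether the Gapdh, Pgk1, Pgam1 and Pkm differences lie in the cells or in how multiply matching reads were counted was not tested.

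**Figure D3:**
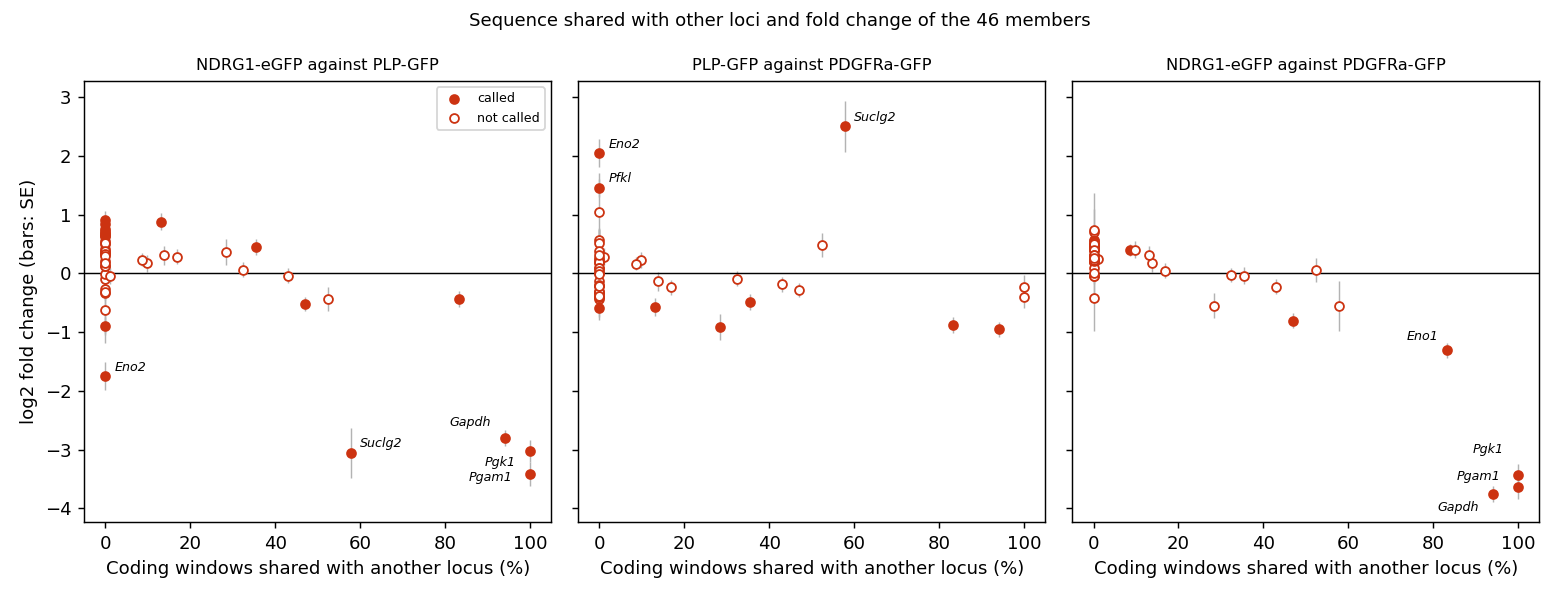
Log2 fold change (vertical axis, with SE) of the 46 enzymes against the percentage of their 50-base coding windows shared with another locus (horizontal axis), for the 3 comparisons. Filled points were called and open points were not. In both NDRG1-eGFP comparisons Gapdh, Pgk1 and Pgam1 lie at 94.2% to 100% shared windows and below -2.8, while enzymes with 0 shared windows, all but Eno2, lie between -1 and 1.

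Of the 8 genes of pyruvate entry, 2 were higher in NDRG1-eGFP cells against PLP-GFP and 3 against PDGFRa-GFP, and 0 were called between PLP-GFP and PDGFRa-GFP. Of all genes 26.1% and 10.7% were higher in the NDRG1-eGFP comparisons, so the first count is near the background. Removing the length trend left 0 higher and 1 lower against PLP-GFP, and 1 higher and 1 lower against PDGFRa-GFP. The catalytic subunits of pyruvate dehydrogenase, Pdha1 and Pdhb, were not called in any comparison of the deposited values (log2 fold changes between -0.22 and 0.29), although Pdhb was called lower in NDRG1-eGFP cells with the length trend removed (-0.41 against PLP-GFP and -0.43 against PDGFRa-GFP). Other loci share 43.0% of the Pdhb coding windows and 10.9% of its transcript windows. The latter share puts it in the class of copied genes described above. Dld, the lipoamide dehydrogenase subunit, read 12.13, 12.05 and 11.95 in PDGFRa-GFP, 12.11, 12.27 and 12.28 in PLP-GFP, and 12.51, 12.53 and 12.27 in NDRG1-eGFP libraries, where replicate 3 overlapped PLP-GFP. Dld and Dlat, the acetyltransferase core, were higher in NDRG1-eGFP than PDGFRa-GFP cells by 0.39 ± 0.12 and 0.39 ± 0.13 (limma adjusted p 0.0466 and 0.0491). When a library was left out, the Dlat call held only without PDGFRa-GFP replicate 3, and the Dld call only without that library or NDRG1-eGFP replicate 3 (highest adjusted p 0.148 and 0.142). With the length trend removed Dlat stayed called (0.39) and Dld did not (0.20). Pcx, which makes oxaloacetate from pyruvate, was not called (-0.27 to 0.22).

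This group holds 3 of the kinases that switch pyruvate dehydrogenase off, of which Pdk2 and Pdk3 were called and Pdk1 was not. Pdk4, a further such kinase outside the group, was called in no comparison. Its log2 fold change was 1.26 ± 0.61 for NDRG1-eGFP over PLP-GFP (limma adjusted p 0.111). It was 1.59 ± 0.61 for NDRG1-eGFP over PDGFRa-GFP (0.0886) and 0.33 ± 0.61 for PLP-GFP over PDGFRa-GFP (0.735). Pdk3 read 12.20, 12.19 and 12.53 in PDGFRa-GFP, 11.92, 12.03 and 12.07 in PLP-GFP, and 12.74, 12.73 and 12.61 in NDRG1-eGFP libraries, and was higher in NDRG1-eGFP than PLP-GFP cells (0.69 ± 0.13, limma adjusted p 0.00178). Pdk2 read 12.96, 12.89 and 12.78 in PDGFRa-GFP, 13.03, 12.78 and 12.85 in PLP-GFP, and 13.28, 13.15 and 13.49 in NDRG1-eGFP libraries. For both genes all NDRG1-eGFP libraries were above the other 6. Pdk2 was called against PLP-GFP (0.42 ± 0.13, adjusted p 0.0212) and against PDGFRa-GFP (0.43 ± 0.13, adjusted p 0.0380), but the first call was lost without PLP-GFP replicate 2 or 3 or NDRG1-eGFP replicate 3 (highest adjusted p 0.0892). The second held only without PDGFRa-GFP replicate 3, PLP-GFP replicate 1 or NDRG1-eGFP replicate 2 (highest adjusted p 0.112 otherwise). With the length trend removed neither kinase was called (Pdk3 0.24, adjusted p 0.0949; Pdk2 0.00, adjusted p 0.992). Pdk1 read 9, 9.07 and 7.64 in PDGFRa-GFP, 8.90, 9.05 and 8.90 in PLP-GFP, and 9.20, 8.95 and 9.77 in NDRG1-eGFP libraries, with a low PDGFRa-GFP replicate 3 and no call.

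In the pentose phosphate pathway 6 of 7 enzymes were not called in any comparison. These were G6pdx, Pgls and Pgd of the NADPH-forming branch and Rpia, Rpe and Tkt of the sugar-rearranging branch. Their log2 fold changes ran from -0.62 to 0.40, with SEs of 0.12 to 0.57. Of the 7, 1 was called higher in NDRG1-eGFP against PLP-GFP and 1 lower in PLP-GFP against PDGFRa-GFP. Of all genes 26.1% and 8.53% were called so. With the length trend removed the counts were 1 and 0, against 19.3% and 5.15%. The low counts are therefore not read as a trait of the pathway. Taldo1, the transaldolase that links the pathway back to glycolysis, read 15.76, 15.76 and 16.24 in PDGFRa-GFP, 15.50, 15.22 and 15.34 in PLP-GFP, and 16.29, 16.29 and 16.13 in NDRG1-eGFP libraries. PLP-GFP libraries were lowest, and PDGFRa-GFP replicate 3 reached the NDRG1-eGFP range. Taldo1 was 1.84-fold higher in NDRG1-eGFP than PLP-GFP cells (0.88 ± 0.15, limma adjusted p 0.00108), a call that held without any single library and, at 0.35 (adjusted p 0.0172), with the length trend removed. The lower value in PLP-GFP than PDGFRa-GFP cells (-0.57 ± 0.15, adjusted p 0.0297) was not called with the length trend removed (-0.17, adjusted p 0.268), nor without PLP-GFP replicate 2 or 3 (highest adjusted p 0.136).

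In the TCA cycle 10 of 15 enzymes were higher in NDRG1-eGFP than PLP-GFP cells, 1 was lower and 4 were not called, with a median log2 fold change of 0.55 against 0.08 for all genes, of which 26.1% were higher and 22.2% lower. Against PDGFRa-GFP cells 6 were higher and 0 lower (10.7% and 10.4% of all genes; median 0.32 against 0.14), while PLP-GFP against PDGFRa-GFP gave 1 higher and 1 lower (median -0.20). With the length trend removed the counts were 2 higher and 1 lower (median 0.11), 0 and 0 (median 0.10), and 1 and 0 (median 0.01). The 2 of 15 then left higher against PLP-GFP do not exceed the 19.3% of all genes. The first count ran from 7 (without NDRG1-eGFP replicate 1) to 11 (without PDGFRa-GFP replicate 3) when a library was left out. The second ran from 1 (without PDGFRa-GFP replicate 2, NDRG1-eGFP replicate 1 or NDRG1-eGFP replicate 2) to 9 (without PDGFRa-GFP replicate 3). Over all genes, calls higher in that comparison went from 1207 to 720, 447 and 480 in the fits that left 1 TCA enzyme. They went to 2804 without PDGFRa-GFP replicate 3. The range of the second count is therefore not read as a trait of these enzymes.

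All 5 isocitrate dehydrogenase genes were higher in NDRG1-eGFP libraries than in those of PLP-GFP. Idh1, the cytosolic NADP-dependent form that supplies NADPH, read 13.15, 13.01 and 13.41 in PDGFRa-GFP, 12.93, 13.05 and 13.00 in PLP-GFP, and 13.92, 13.67 and 13.64 in NDRG1-eGFP libraries. Idh2, its mitochondrial counterpart, read 11.23, 11.38 and 11.65 in PDGFRa-GFP, 11.10, 10.91 and 11.08 in PLP-GFP, and 11.80, 11.98 and 11.44 in NDRG1-eGFP libraries. NDRG1-eGFP libraries were above all others for Idh1 and above PLP-GFP for Idh2, where they overlapped PDGFRa-GFP. Idh1 was 1.68-fold higher in NDRG1-eGFP than PLP-GFP cells (0.75 ± 0.13, limma adjusted p 0.00140), held without any single library and stayed called with the length trend removed (0.35, adjusted p 0.0312). Idh2 rose by 0.71 ± 0.17 (adjusted p 0.00630) but by 0.20 with the length trend removed (adjusted p 0.235).

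The NAD-dependent enzyme Idh3, a main control point of the cycle, has subunits encoded by 3 genes. Idh3b read 12.13, 12.29 and 11.79 in PDGFRa-GFP, 11.51, 11.34 and 11.60 in PLP-GFP, and 12.35, 12.45 and 12.37 in NDRG1-eGFP libraries. Idh3g read 12.73, 12.78 and 12.46 in PDGFRa-GFP, 12.39, 12.09 and 12.29 in PLP-GFP, and 12.82, 12.98 and 12.90 in NDRG1-eGFP libraries. Idh3a read 12.41, 12.24 and 12.35 in PDGFRa-GFP, 12.43, 12.44 and 12.43 in PLP-GFP, and 12.87, 12.78 and 12.63 in NDRG1-eGFP libraries. For each subunit all NDRG1-eGFP libraries were above the other 6. All 3 were higher in NDRG1-eGFP than PLP-GFP cells, by 0.91 ± 0.15 for Idh3b (limma adjusted p 0.000846), 0.64 ± 0.13 for Idh3g (0.00286) and 0.33 ± 0.11 for Idh3a (0.0345). None was called with the length trend removed (0.45, 0.19 and 0.01, with adjusted p 0.0639, 0.338 and 0.945), and the Idh3a call was lost without any 1 of the PLP-GFP replicates or NDRG1-eGFP replicate 1 or 2 (highest adjusted p 0.115). Idh3b was also lower in PLP-GFP than PDGFRa-GFP cells (-0.59 ± 0.15, adjusted p 0.0263), a call lost without any 1 of the PLP-GFP replicates or PDGFRa-GFP replicate 2 (highest adjusted p 0.126).

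Citrate synthase, the entry enzyme of the cycle, read 13.49, 13.34 and 13.54 in PDGFRa-GFP, 13.58, 13.68 and 13.61 in PLP-GFP, and 13.85, 13.96 and 13.75 in NDRG1-eGFP libraries. The Cs values did not overlap between the groups, and the only call was NDRG1-eGFP over PDGFRa-GFP (0.40 ± 0.11, limma adjusted p 0.0286; 0.25 with adjusted p 0.0949 without the length trend). With a library left out, it held only without PDGFRa-GFP replicate 3, PLP-GFP replicate 1 or NDRG1-eGFP replicate 3 (highest adjusted p 0.0979 otherwise). Ogdh and Dlst, subunits of the 2-oxoglutarate dehydrogenase complex, were not called (-0.31 to 0.31), and neither was Me1, the cytosolic malic enzyme that yields NADPH (-0.43 to 0.49).

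The subunits of succinyl-CoA synthetase went in different directions. It pairs the alpha subunit encoded by Suclg1 with either the GTP-forming beta subunit encoded by Suclg2 or the ATP-forming beta subunit encoded by Sucla2. Suclg1 read 12.02, 12.18 and 12.51 in PDGFRa-GFP, 12.01, 11.82 and 11.85 in PLP-GFP, and 12.92, 12.72 and 12.54 in NDRG1-eGFP libraries. Sucla2 read 11.98, 11.92 and 12.13 in PDGFRa-GFP, 12.05, 12 and 11.95 in PLP-GFP, and 12.47, 12.59 and 12.44 in NDRG1-eGFP libraries. Suclg2 read 5.56, 5.65 and 6.71 in PDGFRa-GFP, 8.42, 8.70 and 8.31 in PLP-GFP, and 5.15, 5.99 and 5.12 in NDRG1-eGFP libraries. Suclg1 and Sucla2 were thus highest in NDRG1-eGFP libraries, and Suclg2 in PLP-GFP libraries.

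Suclg1 was higher in NDRG1-eGFP than PLP-GFP cells by 0.83 ± 0.16 (limma adjusted p 0.00182), and by 0.58 with the length trend removed (adjusted p 0.00843), without a change of call when any library was left out. Sucla2 was higher by 0.50 ± 0.11 (adjusted p 0.00501), which fell to 0.09 with the length trend removed (adjusted p 0.510). Against PDGFRa-GFP cells Sucla2 was higher by 0.49 ± 0.11 (adjusted p 0.0141; 0.0571 without NDRG1-eGFP replicate 2) and Suclg1 by 0.49 ± 0.16 (adjusted p 0.0469, held only without PDGFRa-GFP replicate 3 or NDRG1-eGFP replicate 3, with a highest adjusted p of 0.154 otherwise). The Suclg2 change from PLP-GFP to NDRG1-eGFP was -3.05 ± 0.43 (adjusted p 0.000412; -3.12 with the length trend removed), called whichever library was left out. PLP-GFP exceeded PDGFRa-GFP by 2.5 ± 0.43 (adjusted p 0.00833), or by 2.39 with adjusted p 0.0562 without PLP-GFP replicate 2. Suclg2 values lay below the library medians of 10.57, and 57.8% of its coding windows also occur in 1 pseudogene, so its level is uncertain.

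Malate dehydrogenase, which regenerates oxaloacetate and carries reducing power between cytosol and mitochondria, rose in both its forms. The cytosolic Mdh1 read 13.47, 13.53 and 13.53 in PDGFRa-GFP, 13.40, 13.28 and 13.23 in PLP-GFP, and 14.03, 14.18 and 13.71 in NDRG1-eGFP libraries. The mitochondrial Mdh2 read 13.34, 13.39 and 14.03 in PDGFRa-GFP, 13.38, 13.07 and 13.16 in PLP-GFP, and 13.92, 13.84 and 13.77 in NDRG1-eGFP libraries. Mdh1 was above all others in NDRG1-eGFP libraries, whereas Mdh2 was highest in PDGFRa-GFP replicate 3. The differences from PLP-GFP were 0.67 ± 0.13 for Mdh1 and 0.64 ± 0.18 for Mdh2 (limma adjusted p 0.00231 and 0.0142), and 0.23 and 0.11 with the length trend removed (adjusted p 0.131 and 0.496). Fumarase, encoded by Fh1, was also higher (0.55 ± 0.16, adjusted p 0.0170; 0.25 without the length trend, adjusted p 0.189). The Mdh2 call was lost without PLP-GFP replicate 2 or NDRG1-eGFP replicate 1, and the Fh1 call without PLP-GFP replicate 3 or NDRG1-eGFP replicate 1, with adjusted p of at most 0.0596 and 0.0578. Against PDGFRa-GFP cells Mdh1 was higher by 0.46 ± 0.13 (adjusted p 0.0319), a call that held only without PDGFRa-GFP replicate 3, PLP-GFP replicate 1 or NDRG1-eGFP replicate 3 (highest adjusted p 0.115 otherwise). Idh1 was higher by 0.55 ± 0.13 (adjusted p 0.0174), lost without NDRG1-eGFP replicate 1 or PDGFRa-GFP replicate 1 or 2 (highest 0.0672). Idh3a was higher by 0.43 ± 0.11 (adjusted p 0.0243), lost without NDRG1-eGFP replicate 1 or 2, PDGFRa-GFP replicate 2 or PLP-GFP replicate 3 (highest 0.0854).

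**Figure D4:**
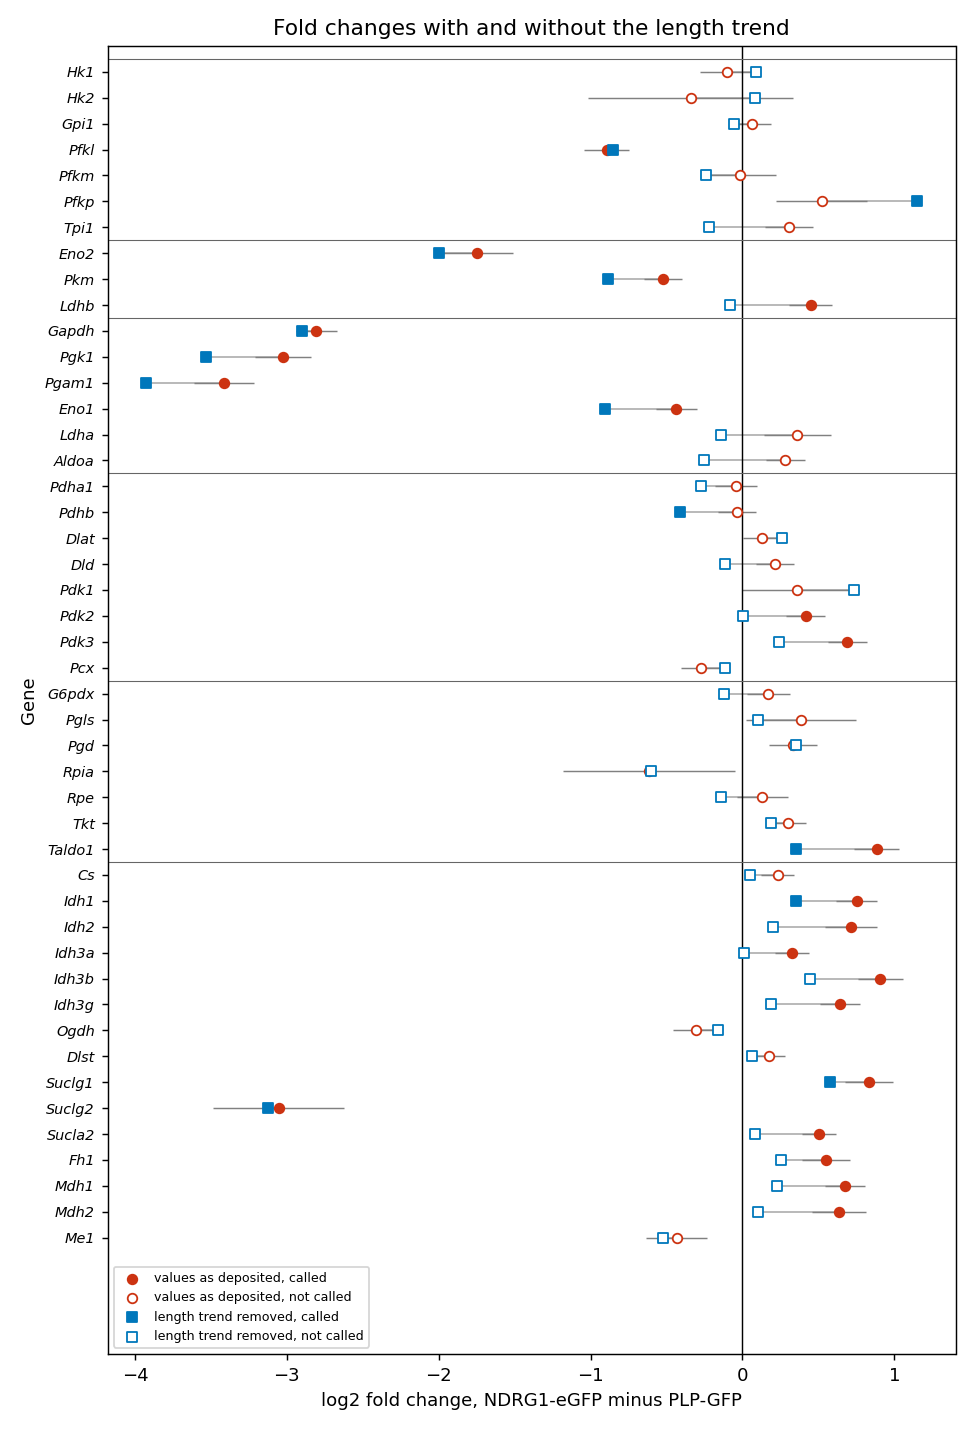
Log2 fold change of each enzyme between NDRG1-eGFP and PLP-GFP cells from the deposited values (circles, with SE) and after removal of each library's trend on transcript length (squares), with filled symbols for called changes. Horizontal lines separate the pathway groups. Of the TCA enzymes 10 were called higher before and 2 after, whereas Pfkl (-0.89 and -0.85), Eno2 (-1.75 and -2.0) and Suclg2 (-3.05 and -3.12) were called lower both times.

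Ratios of isoenzymes within a library cancel a shift common to all its genes, though not a trend on length, and 10 such ratios were tested between the groups with an exact permutation test of the F statistic over the 1680 assignments of the 9 libraries to 3 groups. The ratios may not be per length, so only their changes between groups can be read. Eno2 over Eno1 averaged -4.07 ± 0.39 (log2, SD, n = 3) in PDGFRa-GFP, -1.15 ± 0.18 in PLP-GFP and -2.47 ± 0.17 in NDRG1-eGFP libraries (exact permutation p 0.00357, the smallest the test can give; adjusted over the 10 ratios 0.0179). Suclg2 over Sucla2 averaged -6.03 ± 0.54, -3.52 ± 0.19 and -7.08 ± 0.42 (exact permutation p 0.00357, adjusted 0.0179). In both, all PLP-GFP libraries lay above the others, and 1 gene of each pair shares over 5% of its windows with other loci.

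The remaining 8 ratios did not pass. Pfkl over Pfkm averaged 2.38 ± 0.23, 3.33 ± 0.52 and 2.45 ± 0.08 (exact permutation p 0.0250, adjusted 0.0833). It passed with the length trend removed, as did Pfkp over Pfkm (adjusted p 0.0357 for each, against 0.446 for Pfkp over Pfkm on deposited values). Adjusted p-values were 0.868 for Hk2 over Hk1, 0.561 for Ldhb over Ldha, 0.845 for Pdk1 over Pdk2, 0.561 for Pdk3 over Pdk2, 0.561 for Idh2 over Idh1 and 0.839 for Mdh2 over Mdh1 (exact permutation test). A shift between the cytosolic and mitochondrial forms of isocitrate or malate dehydrogenase was therefore not detected, with group means of the log2 ratio no more than 0.23 and 0.21 apart.

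Beyond the 46, a list of 73 further genes of these pathways had 54 measured: isoenzymes, regulators, carriers, succinate dehydrogenase and transporters of glucose and lactate. In NDRG1-eGFP against PLP-GFP cells 20 were higher and 7 lower (15 and 8 with the length trend removed). PLP-GFP against PDGFRa-GFP gave 2 higher and 4 lower (2 and 4), and NDRG1-eGFP against PDGFRa-GFP gave 13 higher and 4 lower (11 and 4). These counts can be set against the shares of all genes given above, such as 26.1% higher in the first comparison. Equal counts need not hold the same genes. In PLP-GFP against PDGFRa-GFP, Pdpr and Gpd1l (higher) and Sdhb and Mpc1 (lower) lost their calls with the length trend removed, and other genes gained one.

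The genes named next had the smallest adjusted p of those called, which is not an order by fold. Slc25a1, the mitochondrial citrate carrier that exports citrate for lipid synthesis, was higher in NDRG1-eGFP than PLP-GFP cells by 1.32 ± 0.16 (limma adjusted p 0.000209) and than PDGFRa-GFP cells by 0.91 ± 0.16 (0.00418). Slc25a10, the dicarboxylate carrier, was higher by 1.11 ± 0.15 and 0.91 ± 0.15 (adjusted p 0.000329 and 0.00253), and Gpd1, the cytosolic glycerol-3-phosphate dehydrogenase, by 0.98 ± 0.15 and 0.84 ± 0.15 (0.000622 and 0.00402). These 3 stayed called in both comparisons with the length trend removed. Bpgm, which makes 2,3-bisphosphoglycerate, was higher than PLP-GFP cells by 0.76 ± 0.12 (adjusted p 0.000762; 0.34 and still called without the length trend). Its gene is strongly used in red cells, whose markers summed to 8.8 to 11.7 in NDRG1-eGFP and 12.7 to 13.6 in PLP-GFP libraries. Against PDGFRa-GFP cells Got1, the cytosolic aspartate transaminase, was higher by 0.88 ± 0.14 (0.00165), Pdhx by 0.57 ± 0.11 (0.00745) and the mitochondrial malic enzyme gene Me2 by 0.57 ± 0.13 (0.0154).

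The mitochondrial pyruvate carrier split between its subunits. Mpc1 averaged 13.83 in PDGFRa-GFP, 13.22 in PLP-GFP and 12.06 in NDRG1-eGFP libraries, and Mpc2 averaged 12.63, 11.81 and 12.68. Mpc1 was thus lowest in NDRG1-eGFP cells (log2 fold change -1.15 ± 0.14 against PLP-GFP and -1.77 ± 0.14 against PDGFRa-GFP, limma adjusted p 0.000184 and 1.24e-05), and Mpc2 was lowest in PLP-GFP cells (0.87 ± 0.16 for NDRG1-eGFP against PLP-GFP and -0.82 ± 0.16 for PLP-GFP against PDGFRa-GFP, adjusted p 0.00141 and 0.0106). Mpc1 shares 11% of its transcript windows with other loci and Got2, the mitochondrial aspartate transaminase, 16.8%. Got2 changed by -0.88 ± 0.15 and -1.01 ± 0.15 in NDRG1-eGFP against PLP-GFP and PDGFRa-GFP (adjusted p 0.00126 and 0.00154). Ogdhl, a relative of Ogdh with 0 shared windows, was lower in NDRG1-eGFP than PLP-GFP cells (-2.43 ± 0.39, adjusted p 0.000772). In PLP-GFP against PDGFRa-GFP cells the succinate dehydrogenase genes Sdhc (-1.07 ± 0.23, adjusted p 0.0158) and Sdhb (-0.54 ± 0.16, 0.0484) and Mpc1 (-0.61 ± 0.14, 0.0203) were lower, and Pdpr, a regulator of pyruvate dehydrogenase phosphatase (1.14 ± 0.30, 0.0290), and Gpd1l (0.58 ± 0.17, 0.0396) were higher. With the length trend removed, Sdhc and Mpc2 kept their calls in that comparison and Sdhb, Mpc1, Pdpr and Gpd1l did not.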

How the data were processed

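The authors had sequenced RNA from 9 sorted-cell libraries and deposited, per the file headers, 1 normalized value per gene symbol and library. The deposited values were taken as log2 values normalized by the authors, since medians were near 10.57 and sorted values nearly the same in every library, as quantile normalization would give. They were used as they are, where the plan for linear values was log2 of the value plus 1. BWA, DESeq2 1.2.5 and the build mm10 appear in the submitters' processing notes, with roles not given there. Per the labels' protocols, RNA came from a column kit that also yields DNA. Counts were not used here, so depth and counting error are unknown.

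Limma-trend (limma 3.58.1, R 4.3.3) was fitted to all 9 libraries and 11315 genes with a term per group. A filter of at least 1 in at least 3 libraries removed none. P-values were two-sided and adjusted by Benjamini-Hochberg across the whole table, with calls at adjusted p below 0.05. With 3 libraries against 3, an exact test of 1 gene cannot go below 0.1 and was not used. Lengths (longest transcript) and 50-base windows were taken from GENCODE M21 (GRCm38, which is mm10), where 11271 symbols matched. The length trend was a natural spline with 4 degrees of freedom per library. The fit and the ratio test were tested on simulated data.

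Members and lists were chosen with earlier results of these data known. Library values are given for genes of the ratios, many-copy genes and, per comparison, up to 8 called members with the smallest adjusted p and at most 5% shared windows, and up to 8 called genes per comparison beyond the 46 are named. Values of Pkm, Taldo1, Eno1b and Aldoart1 were added after they had been seen. Alternatives were recentring, length-trend removal, filters, an added 5 on the linear scale, leaving out shared genes, fits of 2 groups, a replicate block, robust empirical Bayes, a minimum log2 change of 1 in size and leaving out each library. Removing the length trend and shared genes together was chosen after seeing the data.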

Additional observations from a re-analysis of the deposited data

How the results depend on the processing

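For NDRG1-eGFP against PLP-GFP, the 14 members higher became 4 with the length trend removed and 0 at a minimum log2 change of 1 in size. With shared genes also left out, which removes Taldo1 from the fit, the 4 became 3. The 8 lower became 2 with shared genes left out, with or without the length trend, and 5 at that size. Leaving out shared genes removes all of the 8 except Pfkl and Eno2 from the fit, and these stayed called. For PLP-GFP against PDGFRa-GFP, the 6 lower became 2 with the length trend removed, 3 in a fit of the 2 groups and 0 at that size. They became 1 with shared genes left out, which removes all of the 6 except Idh3b from the fit, and 0 with both. For NDRG1-eGFP against PDGFRa-GFP, the 10 higher became 2 with recentring, 2 with the length trend removed, 1 with shared genes also left out, 0 in a fit of the 2 groups and 0 at that size, and the 5 lower became 0 wherever shared genes were left out, which removes all 5 from the fit. The 10 TCA enzymes higher against PLP-GFP became 2 with the length trend removed, with or without shared genes, and 0 at that size. The 6 higher against PDGFRa-GFP became 2 with recentring, and 0 with the length trend removed, with both, in a fit of the 2 groups and at that size. The 2 isoenzyme ratios called became 4 with the length trend removed. Ldhb in NDRG1-eGFP against PLP-GFP turned from 0.45 to -0.0788 with the length trend removed. Apart from the constructions named, the cause was not tested.

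Leaving out 1 library gave 10 to 19 higher and 7 to 10 lower (NDRG1-eGFP against PLP-GFP), 2 to 5 and 2 to 7 (PLP-GFP against PDGFRa-GFP), and 1 to 18 and 5 to 6 (NDRG1-eGFP against PDGFRa-GFP). TCA enzymes higher ran from 7 to 11 and from 1 to 9, and 2 ratios were called each time. The highest count of members higher came without PDGFRa-GFP replicate 3 in each comparison. Calls higher over all 11315 genes were also most frequent in that fit. For NDRG1-eGFP over PDGFRa-GFP cells they ran from 447 (without NDRG1-eGFP replicate 1) to 2804. For PLP-GFP over PDGFRa-GFP cells they ran from 92 (without PLP-GFP replicate 2) to 1449. For NDRG1-eGFP over PLP-GFP cells they ran from 2114 (without PLP-GFP replicate 2) to 3783. The ranges of members higher are therefore not read as a trait of these enzymes. Of 22, 9 and 15 calls, 16, 4 and 5 held in all 9 such fits, for which no share of all genes is given here.

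The labels number the replicates, but same-numbered libraries did not deviate together (correlations -0.23 to 0.09 over 9 pairs, against -0.13 to 0.23 over 18 pairs with other numbers), so the numbers were not taken to pair the samples. With the replicate block, members lower in PLP-GFP against PDGFRa-GFP were 2, members higher in NDRG1-eGFP against PDGFRa-GFP 0, TCA enzymes higher there 0, and ratios called 0, where the blocked test allows no p below 0.0278. Over all genes, the block gave 457 higher and 864 lower for NDRG1-eGFP against PDGFRa-GFP, against 1207 and 1176 without it, and 338 and 384 for PLP-GFP against PDGFRa-GFP, against 957 and 965.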
